A study of Homo sapiens with 6 samples.

Results

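The class IIa, class IIb and class IV histone deacetylase genes and the MEF2 genes were examined in HEK293T cells with and without valproic acid (VPA). The genes were chosen by name: HDAC4, HDAC5, HDAC7 and HDAC9 (class IIa), HDAC10 (class IIb), HDAC11 (class IV), and MEF2A, MEF2C and MEF2D. These are 9 of the 47470 genes listed in the count files, and all 9 were among the 15298 genes with enough counts to be tested. HEK293T cells descend from human embryonic kidney and express the large T antigen of SV40, and VPA is a short-chain fatty acid that inhibits histone deacetylases, among which the study names class I and class IIa enzymes. The labels give 3 untreated wild-type libraries (treatment "none") and 3 libraries of cells given VPA at 1 mM for 1 day. Both groups are this 1 line, without any other agent or engineered allele named in the labels. RNA was extracted with TRIzol and sequenced as strand-specific mRNA libraries.

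Class IIa deacetylases have little catalytic activity of their own on acetylated histones and act as signal-dependent corepressors. In the nucleus they bind MEF2 transcription factors through an N-terminal domain, recruit the NCoR/SMRT and HDAC3 complex, and keep MEF2 target genes repressed in muscle, neurons and endothelium. Kinases such as the CaM kinases, protein kinase D and the salt-inducible kinases phosphorylate them, after which 14-3-3 proteins bind and hold them in the cytoplasm, and MEF2 is released to bind coactivators. HDAC10 removes acetyl groups from polyamines, and HDAC11, the sole class IV enzyme, removes long-chain fatty acyl groups from proteins.

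HDAC9 rose about 3-fold with VPA, and HDAC11 rose by about a 1.5-fold factor, whereas the more abundant class IIa genes HDAC5 and HDAC7 did not pass the test in either direction. MEF2D rose and HDAC4 fell, both by small amounts whose calls depended on the processing. MEF2A, MEF2C and HDAC10 did not pass the test. When the adjusted p had to be under 0.05 and the log2 fold change 1 or more in either direction, 1 of the 9 genes was up-regulated (HDAC9), where 12% of all tested genes were up-regulated. None of the 9 was down-regulated, where 0.503% of all tested genes were. By the adjusted p alone 3 of the 9 were higher in the VPA group (HDAC9, HDAC11 and MEF2D), beside 32.9% of all tested genes. By the same rule 1 of the 9 was lower (HDAC4), beside 30.0% of all tested genes, which makes 4 of 9 in either direction beside 62.9%. The up-regulated and the higher shares lie near the background. The lower share and the share in either direction, by the adjusted p alone, lie below it. With 9 genes and no test of the set, the results concern single genes and not the set. The median log2 fold change was 0.044 over the 9 genes and 0.0058 over all tested genes.

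The 6 libraries had between 18622267 and 18828495 counts on genes. Values given as normalized counts are counts scaled by TMM library factors to the mean library. Adjusted p-values are from edgeR's quasi-likelihood test with Benjamini-Hochberg adjustment over all tested genes, and measure the spread between these libraries, which may be technical because nothing states that they came from separate cultures. The other scalings tried moved the median log2 fold change of all genes to between -0.0081 (DESeq2 size factors) and 0.28 (ribosomal protein genes), with 0.071 for the upper quartile and 0.14 for library totals, so small fold changes are relative to the scaling. Of 10 genes listed as HEK293T markers 9 were tested, of which 7 rose and 2 fell (over all tested genes 32.9% and 30.0%), and their summed normalized counts were 19278 to 19933 in untreated and 22313 to 23646 in VPA libraries. PAX8, a kidney lineage factor of that list, had 0 counts in the untreated and 2 in the VPA libraries. PAX2 of the same list rose from 29.5 ± 0.390 to 141.6 ± 1.07 normalized counts (log2 fold change 2.26, adjusted p = 6.80e-12 by edgeR). LHX1, also listed, stood at 71.1 to 77.6 normalized counts in untreated and 119.7 to 140.5 in VPA libraries. NEFM, an abundant gene in that sum, stood at 4202 to 4460 and 7586 to 8189. The 2 listed genes that fell were VIM and CDH2. VIM stood at 10634 to 10889 in untreated and 8695 to 9171 in VPA libraries, and CDH2 at 1997 to 2160 and 1581 to 1610. With ribosomal protein scaling 1 gene of the list was lower. Endothelial markers summed to 10.3 to 20.9 normalized counts in untreated and 138 to 171 in VPA libraries. Of these 5 markers 2 (KDR and VWF) were tested, both only because the VPA libraries reached the count minimum, so that their higher values decided their entry, while CDH5 and TEK had 0 counts in all untreated libraries. Muscle markers summed to 23.0 to 31.5 and 52.6 to 85.2, with 2 of 8 tested (NEB, which rose, and TTN, which met the count minimum only through the VPA libraries) and with MYH1, CKMT2 and TNNT3 at 0 in all libraries. The part of these markers in the results on the 9 genes was not tested. In bulk RNA, fewer cells that express a gene and less RNA per cell cannot be told apart.

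HDAC9 is the class IIa member with the largest gene, on the plus strand of chromosome 7 at chr7:18086825-19002416 (GRCh38.p14), and it is known in muscle as a gene that MEF2 itself activates. RefSeq start sites matched 8 of the 9 genes (all but HDAC5), with 24 windows of 300 bases, from 250 bases before to 50 bases after a start. The MEF2 consensus, searched by name on both strands, was found in 3 of these 24 windows, at 1 start each of HDAC9, MEF2A and MEF2C, and in 2.99% of all 35116 RefSeq windows. At the first start of HDAC9 the match lies across the annotated start base 18086825, at chr7:18086817-18086826. A match is a description of letters, not a site or a cause. The first HDAC9 start and a later one are shown because they differ in base composition, and the MEF2A start because it holds a match. Each stretch begins 250 bases before its start and ends 10 bases into the transcript, 5′ to 3′ on the plus strand of GRCh38.p14, with the MEF2 match in capitals:
HDAC9 first start, chr7:18086575-18086834: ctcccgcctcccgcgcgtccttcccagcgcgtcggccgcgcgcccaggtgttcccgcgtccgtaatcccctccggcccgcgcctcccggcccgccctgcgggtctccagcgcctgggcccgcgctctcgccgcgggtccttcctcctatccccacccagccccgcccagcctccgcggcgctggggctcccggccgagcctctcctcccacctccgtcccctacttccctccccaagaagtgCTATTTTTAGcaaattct
HDAC9 later start, chr7:18495460-18495719: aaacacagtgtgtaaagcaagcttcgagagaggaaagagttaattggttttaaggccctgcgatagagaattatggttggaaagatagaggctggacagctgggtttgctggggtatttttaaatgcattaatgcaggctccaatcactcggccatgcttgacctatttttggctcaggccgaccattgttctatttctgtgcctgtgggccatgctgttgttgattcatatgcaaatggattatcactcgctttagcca
MEF2A second start, chr15:99565734-99565993: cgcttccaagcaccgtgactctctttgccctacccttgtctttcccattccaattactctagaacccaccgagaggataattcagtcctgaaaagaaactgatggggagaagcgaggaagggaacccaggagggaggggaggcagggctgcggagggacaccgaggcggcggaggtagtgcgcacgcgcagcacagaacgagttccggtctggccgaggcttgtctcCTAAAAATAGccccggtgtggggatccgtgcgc

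The window at the first HDAC9 start was 75.0% G and C, with 41 CpG dinucleotides and an observed to expected CpG ratio of 1.11. The 4 later HDAC9 windows were between 40.0% and 49.3% G and C, beside a median of 58.7% over all windows, and their CpG ratios were between 0 and 0.346, beside a median of 0.579. The letters GGGCGG (either strand), the core of a GC box, occurred 3 times at the first HDAC9 start, and were found in 7 of the 24 windows and in 45% of all windows. TATAAA (either strand) was found in none of the 24 windows and in 11.5% of all windows. The counts are per gene, so they do not show which HDAC9 start or isoform was used.

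HDAC9 had 17.6, 41.8 and 32.5 normalized counts in the 3 untreated libraries. It had 90.0, 103 and 81.3 in the 3 VPA libraries. The groups did not overlap, with every VPA library above every untreated one, as for 34.8% of all tested genes. The lowest VPA library lay well above the highest untreated one. The mean went from 30.6 ± 12.2 to 91.4 ± 10.9 (SD, n = 3 each). That is a log2 fold change of 1.58 (SE 0.199, 95% interval 1.16 to 1.99) or 2.98-fold (2.24 to 3.97), with an adjusted p of 7.57e-07 by edgeR. These values rest on 88 reads in the untreated and 286 in the VPA libraries, few beside the other 8 genes, and the untreated libraries differed most among themselves. HDAC9 passed the test in all 6 fits that left out a library, with log2 fold changes between 1.29 and 1.86. HDAC9 also passed when a fold change over 2 was itself tested (glmTreat in edgeR, adjusted p = 0.018).

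The antisense gene HDAC9-AS1 had 0 counts in all 6 libraries, and PRPS1L1, the nearest gene before HDAC9, had 1. The genes whose values ran most like those of HDAC9 over the 6 libraries were CERS6, a ceramide synthase (Pearson r of log2 values 0.9988), SLC17A5, a lysosomal sialic acid exporter (0.9984), and GTF2IP4, a pseudogene (0.9981). These correlations are descriptions over 6 libraries in 2 groups. The log2 fold changes of the 3 genes were 0.18, 0.40 and 0.23, all below that of HDAC9.

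**Figure D1:**
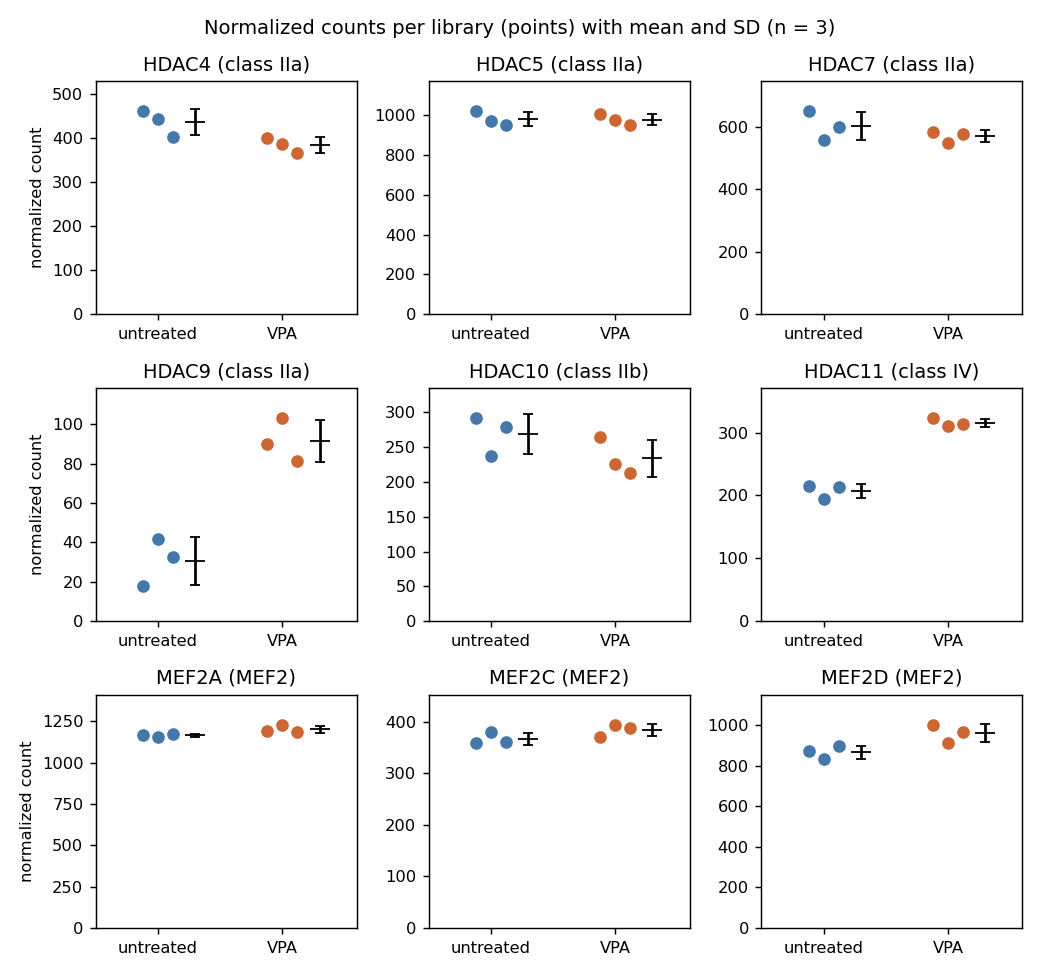
Normalized counts (vertical axis, from 0) of the 9 genes in each untreated (blue) and VPA (orange) library, with the mean and SD (n = 3) in black. For HDAC9 the VPA libraries sit between 81.3 and 103, above the untreated ones at 17.6 to 41.8, and for HDAC11 between 309.9 and 322.6, above 193.5 to 214.1, while for HDAC5, HDAC7, HDAC10 and MEF2C the groups overlap. Of all tested genes, 34.8% had every VPA library above every untreated one.

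HDAC4 is the class IIa member best known from growth plate cartilage and muscle, at chr2:239048168-239401649 on the minus strand. It had 460.3, 443.4 and 402.7 normalized counts in untreated and 400.2, 385.9 and 365.4 in VPA libraries. All VPA libraries lay below all untreated ones, by a narrow margin, as they did for 31.0% of all tested genes. HDAC4 fell by 0.18 on the log2 scale (SE 0.070, adjusted p = 0.0283 by edgeR), from a mean of 435.5 ± 29.6 to 383.8 ± 17.5. The call did not hold with DESeq2 (adjusted p = 0.07), with the upper quartile (0.15) or library totals (0.56), and the direction turned with ribosomal protein scaling (log2 fold change 0.088, adjusted p = 0.29). The call was also lost without untreated library 1 (adjusted p = 0.097), untreated library 2 (0.073), VPA library 2 (0.059) or VPA library 3 (0.12). HDAC4-AS1, an antisense gene that overlaps HDAC4, had 25 untreated and 23 VPA counts and was not tested.

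HDAC5, a class IIa member known as a brake on cardiac growth, lies at chr17:44076753-44123641 on the minus strand. It had 1018, 971.6 and 949.2 normalized counts in untreated libraries and 1003, 975.9 and 951.8 in VPA libraries. The groups covered the same range, with a log2 fold change of -0.0038 (95% interval -0.11 to 0.10, adjusted p = 0.954 by edgeR). Its sign turned with the upper quartile (0.061), with library totals (0.13, adjusted p = 0.039) and with ribosomal protein scaling (0.27, adjusted p = 0.00015).

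HDAC7, the class IIa member known from endothelium and thymocytes, lies at chr12:47782722-47821344 on the minus strand. It had 649.6, 559.5 and 601 normalized counts in untreated libraries and 584, 548.6 and 577.8 in VPA libraries. The VPA values lay inside or just below the untreated range, with a log2 fold change of -0.082 (95% interval -0.21 to 0.049, adjusted p = 0.268 by edgeR). The sign turned with library totals (0.049) and ribosomal protein scaling (0.19, adjusted p = 0.017). SLC48A1, a haem transporter gene on the plus strand whose last bases overlap HDAC7, rose from a mean of 174.4 to 316.4 normalized counts (log2 fold change 0.86, adjusted p = 6.74e-08 by edgeR). The strand setting of the counting is not given in the sources used here, so reads in that overlap are uncertain.

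Within class IIa the level per transcript length shows how small the HDAC9 share was. Per kilobase (kb) of the MANE Select transcript in GENCODE 44, the 4 class IIa genes summed to 382 ± 17.1 normalized counts in untreated and 374 ± 8.77 in VPA libraries (SD, n = 3 each), with overlapping ranges. HDAC9 made up 0.443%, 1.14% and 0.885% of that sum in untreated libraries. It made up 2.37%, 2.82% and 2.24% in VPA libraries, so its share was higher in every VPA library than in any untreated one. HDAC5 held the largest share in both groups, at 48.2% and 49.2%, followed by HDAC7 at 37.5% and 36.2% and HDAC4 at 13.5% and 12.1%. Since the shares are taken within a library, they do not depend on the scaling between libraries.

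**Figure D2:**
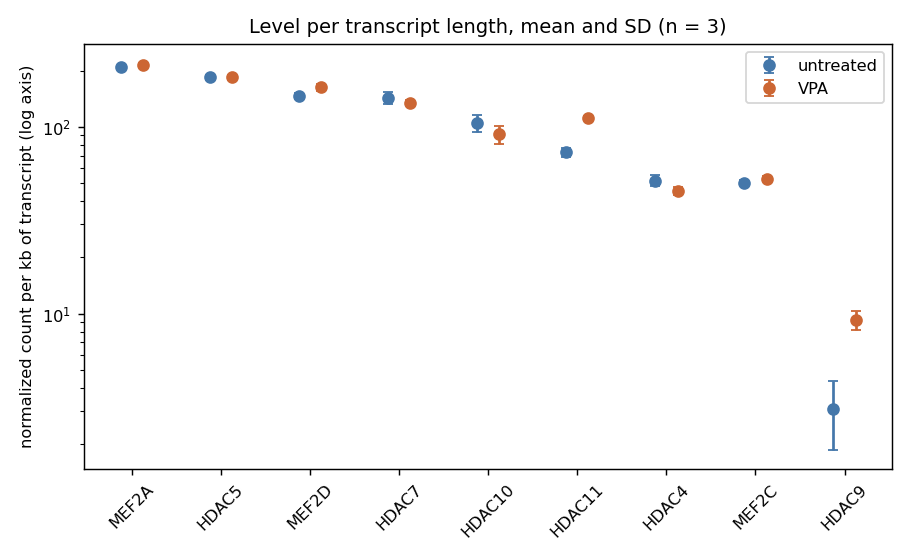
Normalized counts per kb of MANE Select transcript (vertical log axis) for the 9 genes in order of their untreated level, as mean and SD (n = 3) in untreated (blue) and VPA (orange) libraries. HDAC9 is the lowest in both groups, at 3.10 and 9.25, and HDAC11 moves from 73.4 to 112 and so passes HDAC10, which is at 105 and 91.3.

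On the per kb scale MEF2A was highest in untreated libraries at 209, followed by HDAC5 at 184, MEF2D at 147, HDAC7 at 143, HDAC10 at 105, HDAC11 at 73.4, HDAC4 at 51.5, MEF2C at 50.3 and HDAC9 at 3.10. In this order MEF2D and HDAC7 overlapped between libraries, as did HDAC4 and MEF2C, while the other neighbours were apart in all 3 libraries. In VPA libraries no neighbours overlapped, HDAC11 stood above HDAC10 (112 against 91.3) and MEF2C above HDAC4 (52.8 against 45.4). The order depended in part on the length used. With the union of all annotated exons, the mean of MEF2D stood above that of HDAC5 in both groups. Their ranges overlapped in untreated libraries (131 to 141 against 125 to 134). By that length MEF2C was at 31.1 and HDAC4 at 30.7 already in untreated libraries (with overlapping ranges). In VPA libraries HDAC11 at 60.3 stood above HDAC7 at 57.4, while HDAC11 passed HDAC10 with either length. The class I gene HDAC1 stood at 4060 normalized counts per kb in untreated libraries, far above each of the 9 genes.

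HDAC10, the class IIb polyamine deacetylase, is a compact gene at chr22:50245183-50251265 on the minus strand. It had 291.7, 237.4 and 279 normalized counts in untreated libraries and 264.2, 225.2 and 213.3 in VPA libraries. The groups overlapped, with means of 269.4 ± 28.4 and 234.3 ± 26.6 and a log2 fold change of -0.20 (SE 0.095, 95% interval -0.40 to -0.0038, adjusted p = 0.0704 by edgeR). It passed the edgeR test without untreated library 2 (adjusted p = 0.019), without VPA library 1 (0.012) and with the replicate block (0.019). HDAC10 also passed with DESeq2 size factors in edgeR (0.048) and with no filter (0.029). Its sign turned with ribosomal protein scaling (0.069). Its flanking genes TUBGCP6, a subunit of the gamma-tubulin ring complex (log2 fold change -0.11, adjusted p = 0.0641), and MAPK12, a p38 kinase (-0.0019, adjusted p = 0.977), did not pass the edgeR test either. The other class IIb gene, HDAC6, a tubulin deacetylase on the X chromosome, was listed at 0 in all 6 libraries, as was the X-linked class I gene HDAC8 and every other gene of the X and Y chromosomes, and gives no measurement here.

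Among 9 enzymes of polyamine metabolism, the pathway of HDAC10 substrates, 1 rose and 5 fell by the adjusted p alone (over all tested genes 32.9% and 30.0%), with a median log2 fold change of -0.15 that turned with ribosomal protein scaling (0.12). ODC1, which makes putrescine and sets the rate of the pathway, fell from 9547 ± 676 to 6330 ± 134 normalized counts (log2 fold change -0.59, adjusted p = 4.17e-10 by edgeR). Spermidine synthase SRM fell by 0.56 on the log2 scale (adjusted p = 2.04e-08) and the antizyme OAZ1, which targets ODC1 for breakdown, fell by 0.28 (adjusted p = 3.62e-06 by edgeR). With ribosomal protein scaling OAZ1 was no longer past the test (-0.011). PAOX, the oxidase that breaks down acetylated polyamines, was the one that rose, from 69.1 ± 15.1 to 98.4 ± 9.37 normalized counts (log2 fold change 0.51, adjusted p = 0.00517 by edgeR).

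HDAC11 lies at chr3:13480306-13506416 on the plus strand. The window at its RefSeq start holds the letters GGGCGG 5 times on either strand and is shown with no capitals, since it has no MEF2 match, for the 250 bases before the start and the first 10 of the transcript:
HDAC11 start, chr3:13480056-13480315: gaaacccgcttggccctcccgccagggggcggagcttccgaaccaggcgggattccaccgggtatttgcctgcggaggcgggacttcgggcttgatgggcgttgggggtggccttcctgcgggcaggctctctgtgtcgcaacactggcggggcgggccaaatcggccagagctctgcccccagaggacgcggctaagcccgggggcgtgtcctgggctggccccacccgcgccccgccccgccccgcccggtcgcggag

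HDAC11 had 214.1, 193.5 and 212.9 normalized counts in untreated libraries and 322.6, 309.9 and 313.8 in VPA libraries. The groups were far apart and the VPA libraries close to each other. Every VPA library was above every untreated one, as for 34.8% of all tested genes. The mean went from 206.8 ± 11.6 to 315.4 ± 6.54, a log2 fold change of 0.61 (SE 0.079, 95% interval 0.44 to 0.77) or 1.52-fold, with an adjusted p of 8.83e-07 by edgeR. HDAC11 passed the test of any change in all 6 fits that left out a library, with log2 fold changes between 0.56 and 0.63, and it did not reach the fold threshold of 2. FBLN2, the next gene after HDAC11 and an extracellular matrix protein, rose from a mean of 52.8 to 182.1 normalized counts (log2 fold change 1.78, adjusted p = 1.29e-10 by edgeR). HDAC11-AS1, on the opposite strand before the HDAC11 start, had 4 untreated and 6 VPA counts. SHMT2, a serine hydroxymethyltransferase from which HDAC11 removes fatty acyl groups, had a log2 fold change of -0.061 (adjusted p = 0.178 by edgeR), and IL10, a cytokine gene that HDAC11 is known to repress in immune cells, had 0 counts.

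**Figure D3:**
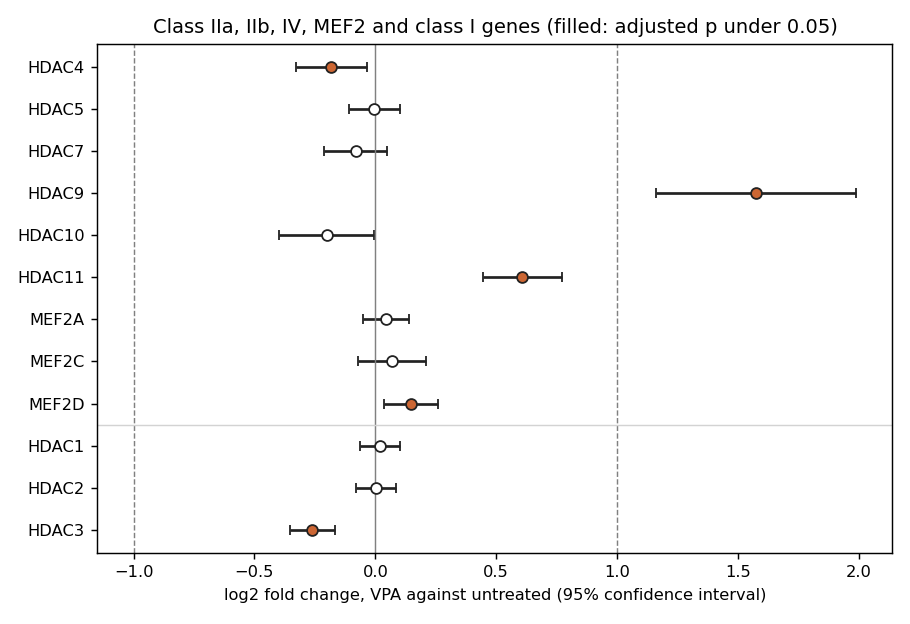
The log2 fold change of VPA against untreated (horizontal axis) with its 95% confidence interval for the 9 genes and for HDAC1, HDAC2 and HDAC3, with filled points where the adjusted p is under 0.05 and dashed lines at 1 and -1. Of the 12 genes, HDAC9 at 1.58 is the one beyond a dashed line, HDAC11 is at 0.61, and HDAC3 is the class I gene past the test, at -0.26, which turned to 0.010 with ribosomal protein scaling.

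MEF2A, the most abundant of the 3 MEF2 genes, lies at chr15:99565417-99716488 on the plus strand. It had 1165, 1158 and 1175 normalized counts in untreated libraries and 1189, 1227 and 1188 in VPA libraries. Every VPA library was above every untreated one, as was so for 4 of the 9 genes and for 34.8% of all tested genes, but the difference was small, with a log2 fold change of 0.044 (95% interval -0.053 to 0.14, adjusted p = 0.428 by edgeR). It passed the test with the upper quartile, library totals and ribosomal protein scaling, the last with a log2 fold change of 0.31. LYSMD4, on the other strand at the end of MEF2A and overlapping it, had a log2 fold change of 0.15 (adjusted p = 0.031 by edgeR).

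MEF2C, the MEF2 gene of early heart and neuronal development, lies at chr5:88717117-88904105 on the minus strand. It had 357.9, 379.6 and 360.8 normalized counts in untreated libraries and 370.5, 393.6 and 388.4 in VPA libraries. The ranges overlapped, with a log2 fold change of 0.069 (95% interval -0.071 to 0.21, adjusted p = 0.385 by edgeR). It passed the test with library totals and ribosomal protein scaling, the latter with a log2 fold change of 0.34. The antisense genes MEF2C-AS1 (16 untreated and 32 VPA counts) and MEF2C-AS2 (2 and 5 counts) overlap it and were not tested.

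MEF2D, the MEF2 gene with the widest expression in adult tissues, lies at chr1:156463727-156500775 on the minus strand. It had 873, 833.5 and 895.7 normalized counts in untreated libraries and 1001, 914.3 and 967.1 in VPA libraries. Every VPA library was above every untreated one, the nearest by a narrow margin, as for 34.8% of all tested genes. MEF2D rose from 867.4 ± 31.5 to 961 ± 43.9, a log2 fold change of 0.15 (SE 0.054, 95% interval 0.037 to 0.26, adjusted p = 0.0205 by edgeR). The call did not hold with DESeq2 (adjusted p = 0.15), without a filter (0.06), or without untreated library 2 (0.12), VPA library 1 (0.09) or VPA library 3 (0.056), while it was stronger with library totals (log2 fold change 0.28). MIR9-1HG, the host gene of a neural microRNA and the nearest gene before MEF2D, rose from a mean of 15.6 to 51.1 normalized counts (log2 fold change 1.70, adjusted p = 3.41e-06 by edgeR).

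Per kb, the 3 MEF2 genes summed to 406 ± 5.50 normalized counts in untreated and 431 ± 2.48 in VPA libraries (SD, n = 3 each). MEF2A made up 51.1% to 51.8% of the sum in untreated and 49.2% to 51.3% in VPA libraries, MEF2D 35.2% to 36.8% and 36.1% to 39.1%, and MEF2C a mean of 12.4% and 12.3%. MEF2B had 6 counts over all 6 libraries and was not tested.

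**Figure D4:**
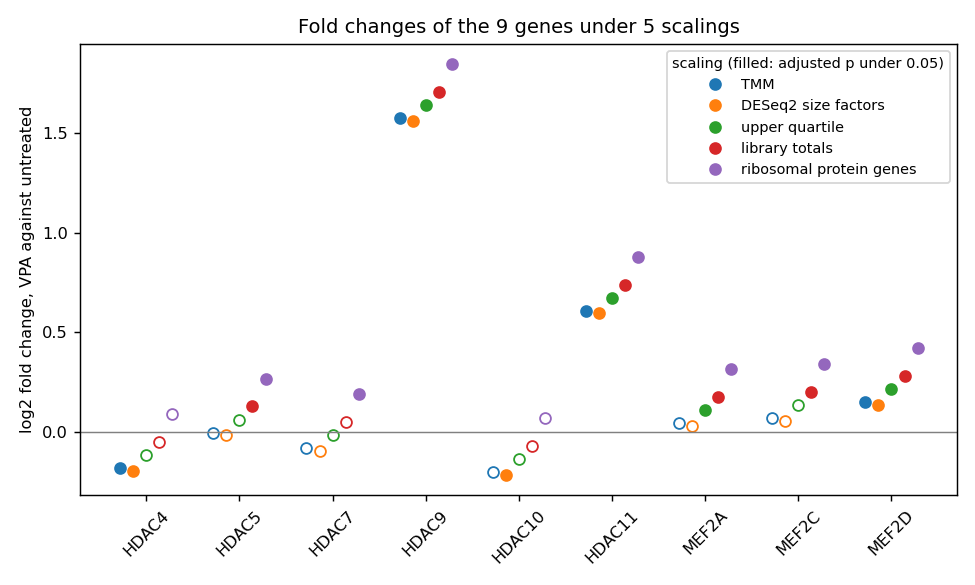
The log2 fold change of VPA against untreated (vertical axis) of the 9 genes under 5 scalings of the libraries, with filled points where the adjusted p is under 0.05. HDAC9 lies between 1.56 and 1.85 and HDAC11 between 0.59 and 0.88, filled under every scaling, while HDAC4, HDAC5, HDAC7 and HDAC10 cross from below 0 to above 0 with ribosomal protein scaling at the latest.

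The class I genes, whose enzymes VPA also inhibits, were measured in the same fit. HDAC1 and HDAC2, the catalytic subunits of the NuRD and Sin3 complexes, had log2 fold changes of 0.018 (95% interval -0.064 to 0.10) and 0.0022 (-0.082 to 0.086). HDAC3, the catalytic subunit of the NCoR/SMRT complex, fell from 2759 ± 133 to 2302 ± 67.4 normalized counts (log2 fold change -0.26, SE 0.045, adjusted p = 2.82e-05 by edgeR), a fall that did not hold with ribosomal protein scaling (0.010).

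Of 21 kinases that act on class IIa deacetylases or on those kinases, 19 were tested, of which 9 rose and 7 fell by the adjusted p alone, beside 32.9% and 30.0% over all tested genes, with a median log2 fold change of 0.11. CAMK1D, a calcium/calmodulin-dependent kinase, rose from 189.5 ± 1.09 to 542.7 ± 16.2 normalized counts (log2 fold change 1.52, SE 0.072, adjusted p = 8.45e-14 by edgeR). CAMK2B, the CaM kinase II subunit of neurons, rose from 71.3 ± 12.2 to 169.4 ± 20.5 (log2 fold change 1.25, adjusted p = 4.23e-08 by edgeR). CAMK4, a nuclear CaM kinase, rose from 262.1 ± 12.6 to 519.4 ± 14.5 (log2 fold change 0.99, adjusted p = 6.09e-11 by edgeR). These CaM kinases are expressed chiefly in neurons and immune cells. For each of them every VPA library was above every untreated one, as for 34.8% of all tested genes. PRKAA2, a catalytic subunit of AMPK, rose by a log2 fold change of 0.40 (adjusted p = 1.90e-06 by edgeR). The 7 kinases that fell did so by less than the named CaM kinases rose. They were PRKD3 (log2 fold change -0.32), MARK2 (-0.26), CAMKK2 (-0.25), PRKAA1 (-0.24), CAMK1 (-0.21), STK11 (-0.19) and MARK3 (-0.11). With ribosomal protein scaling 12 kinases of the list rose and 0 fell. The 2 untested kinases were CAMK2A, with 3 and 2 counts, and CAMK1G, with 1 count in untreated and 36 in VPA libraries.

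Of 11 genes for 14-3-3 proteins, nuclear export and phosphatase subunits, 1 rose and 9 fell by the adjusted p alone (32.9% and 30.0% over all tested genes). Those that fell included the phosphatase subunits PPP2CA (log2 fold change -0.20) and PPP2R1A (-0.25), while PPP1R12A (0.042) did not pass the test. The median log2 fold change of the list was -0.23. It turned to 0.039 with ribosomal protein scaling, under which 2 rose and 2 fell. YWHAE, 14-3-3 epsilon, fell from 26853 ± 803 to 18392 ± 725 normalized counts (log2 fold change -0.55, SE 0.044, adjusted p = 5.73e-10 by edgeR), and fell under ribosomal protein scaling also (-0.28). YWHAH, 14-3-3 eta, fell by 0.38 on the log2 scale (adjusted p = 7.19e-07 by edgeR). XPO1, the exportin that carries class IIa deacetylases out of the nucleus, fell from 9497 ± 295 to 7867 ± 280 normalized counts (log2 fold change -0.27, adjusted p = 7.53e-06 by edgeR), a fall that did not hold with ribosomal protein scaling (adjusted p = 1). SFN, 14-3-3 sigma of epithelia, which met the count minimum only through the VPA libraries, was the one that rose, from a low level of 3.83 ± 2.20 to 14.7 ± 3.97 (log2 fold change 1.91, adjusted p = 0.000597 by edgeR).

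Of 12 corepressors that work with class IIa deacetylases, 1 rose and 6 fell, beside 32.9% and 30.0% over all tested genes, with a median log2 fold change of -0.10 that turned to 0.027 with library totals. ZBTB16, a zinc finger repressor also called PLZF, rose from 72.0 ± 5.71 to 114.1 ± 8.20 normalized counts (log2 fold change 0.66, adjusted p = 8.76e-05 by edgeR). CBX5, the heterochromatin protein HP1 alpha, fell from 4180 ± 225 to 2754 ± 153 (log2 fold change -0.60, adjusted p = 3.98e-10 by edgeR), under ribosomal protein scaling by 0.33. TBL1XR1, a subunit of the NCoR/SMRT complex, fell by 0.30 on the log2 scale (adjusted p = 6.89e-05) and CABIN1, a calcineurin inhibitor that represses MEF2, fell by 0.24 (adjusted p = 5.29e-05 by edgeR). Neither of these falls held with ribosomal protein scaling, under which they stood at -0.027 and 0.028.

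**Figure D5:**
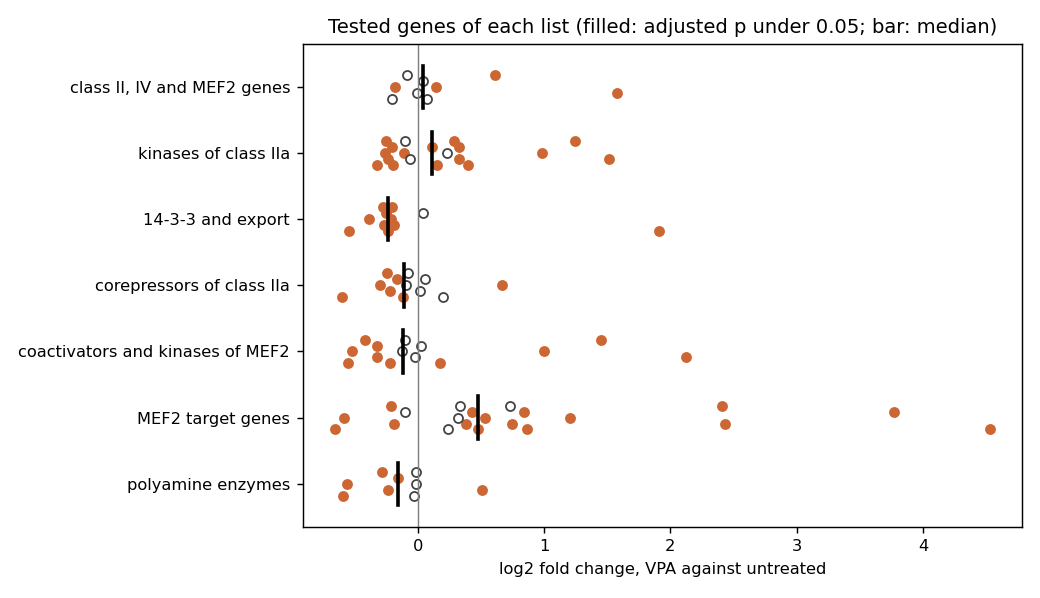
The log2 fold change of VPA against untreated (horizontal axis) of each tested gene of 7 lists, with filled points where the adjusted p is under 0.05 and a bar at the median of each list. The tested MEF2 target genes, 5 of which met the count minimum only through the VPA libraries, have the highest median, 0.48. The 14-3-3 and export list, which also holds phosphatase subunits, has the lowest, -0.23, which turned to 0.039 with ribosomal protein scaling. Under that scaling the negative medians of the corepressors (0.17), the MEF2 coactivators and kinases (0.16) and the polyamine enzymes (0.12) turned also.

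Of 15 coactivators and kinases of MEF2, 14 were tested, of which 4 rose and 6 fell (32.9% and 30.0% over all tested genes), with a median log2 fold change of -0.11 that turned to 0.019 with library totals. NFATC2, a calcineurin-dependent partner of MEF2 that met the count minimum only through the VPA libraries, rose from 16.0 ± 5.85 to 70.0 ± 3.23 normalized counts (log2 fold change 2.12, SE 0.210, adjusted p = 1.53e-08 by edgeR). NFATC4, of the same family, rose from 290.2 ± 19.6 to 792.2 ± 82.3 (log2 fold change 1.45, adjusted p = 8.51e-13 by edgeR). MAPK11, a p38 kinase, rose from 69.6 ± 5.71 to 139.3 ± 14.9 (log2 fold change 1.00, adjusted p = 5.35e-07 by edgeR). GTF2I, the general transcription factor TFII-I, fell from 3187 ± 77.2 to 2175 ± 38.6 (log2 fold change -0.55, adjusted p = 1.49e-10 by edgeR). MYOCD, the smooth and cardiac muscle coactivator, was the untested one, with 1 count in untreated and 41 in VPA libraries.

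Of 33 genes known as MEF2 targets in muscle, neurons or immune cells, 21 were tested. Of these, 5 (BDNF, MYOD1, DES, EGR3 and MYOM1) met the count minimum only through the VPA libraries, as did 1154 of all 15298 tested genes, so their higher values decided their entry and the counts describe the tested genes, not the list. Of the 21, 12 rose and 4 fell by the adjusted p alone (32.9% and 30.0% over all tested genes), with a median log2 fold change of 0.48. By both thresholds 5 were up-regulated (12% over all tested genes). These were PPARGC1A (log2 fold change 1.20) and BDNF, MYOD1, DES and EGR3, whose entry rested on the VPA libraries, so this count partly follows from the filter. BDNF, a neurotrophin, went from 1.39 ± 0.611 to 34.8 ± 8.12 normalized counts (log2 fold change 4.53, SE 0.427, adjusted p = 7.55e-09 by edgeR), from 4 reads in all untreated libraries to 109 in the VPA libraries. MYOD1, the myogenic regulator, went from 2.44 ± 1.61 to 34.8 ± 6.33 (log2 fold change 3.77, adjusted p = 2.16e-08 by edgeR). DES, the muscle intermediate filament desmin, rose from 6.61 ± 2.43 to 36.1 ± 3.76 (log2 fold change 2.43, adjusted p = 2.30e-07 by edgeR), and EGR3, an immediate early factor, from 4.19 ± 2.78 to 22.7 ± 2.07 (log2 fold change 2.41, adjusted p = 1.17e-05 by edgeR). These 4 genes had few reads in untreated cells. For each of them every VPA library was above every untreated one, as for 34.8% of all tested genes. Since these genes entered through their VPA values, that separation adds no further support. The 4 targets that fell were JUN, ACTA1, PFKM and HOMER1, named here after their values were seen. JUN, the AP-1 subunit, fell by 0.65 on the log2 scale (adjusted p = 5.38e-11 by edgeR). ACTA1 fell by 0.58 (adjusted p = 0.0334 by edgeR), PFKM by 0.21 and HOMER1 by 0.19. Not all of these falls held under other processing. Of the listed targets 3 fell with DESeq2, 2 with the upper quartile, and 1 with library totals or ribosomal protein scaling. The 12 untested targets, with too few counts, included the muscle genes MYOG with 1 count, MYH7 with 1 and XIRP1 with 0 over all 6 libraries. Other untested targets had more counts in VPA libraries, namely KCNA1 (4 in untreated and 39 in VPA libraries), HRC (2 and 16) and CKM (6 and 16). Many of the listed targets also answer to other factors, and whether MEF2 took part in their values was not tested.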

How the data were processed

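RNA-seq of 3 untreated and 3 VPA-treated HEK293T libraries was analysed, grouped by the sample labels. Read cleaning was by SOAPnuke and alignment to hg38 by STAR (2.7.10b in the submitters' processing notes). Counting per gene was by HTSeq (2.0.1 in those notes, another version in the study's methods), and the authors deposited the raw counts. The gene annotation and strand setting are not given in the sources used here. The 5 summary lines were left out (no feature 6.80% to 7.69%, ambiguous 1.97% to 2.10%, not unique 2.81% to 2.92%). Reads with several places were set aside, which lowers genes with near-identical copies.

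The test was edgeR 4.0.16 under R 4.3.3 (TMM, filterByExpr with a count minimum of 10, robust quasi-likelihood fit, condition as the one term, prior count 0.125, two-sided, Benjamini-Hochberg over 15298 genes). Each SE was obtained as log2 fold change over the root of F. "Rose", "fell", "higher" and "lower" mean an adjusted p under 0.05, and up- or down-regulated also a log2 fold change of 1 or more in either direction. Replicates were not duplicates. The test was tested on simulated counts. Alternatives were DESeq2 1.42.0, other scalings, filters and thresholds, glmTreat, a replicate block and leaving out each library. Counting limits the precision of low genes.

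The 9 genes and all lists were chosen with earlier results of these data known. Named were all 9 genes, up to 4 called genes of largest change per list, HDAC1, HDAC2, HDAC3, HDAC6, HDAC8 and MEF2B, the 3 genes most like each up-regulated gene, and neighbours with counts. Outside that rule stand CAMK1G, CAMK2A, PRKD3, MARK2, CAMKK2, PRKAA1, CAMK1, STK11, MARK3, MYOCD, JUN, HOMER1, PFKM, ACTA1, PPARGC1A, KCNA1, HRC, CKM, PPP2CA, PPP2R1A, PPP1R12A, PAX8, LHX1, NEFM, VIM, CDH2, SHMT2, IL10 and the markers and targets at or near 0. They were named after their values were seen. Gene positions and start sites are from RefSeq (GRCh38.p14), lengths from GENCODE 44 (MANE Select). A further marker list is not reported here.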

Additional observations from a re-analysis of the deposited data

How the results depend on the processing

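Over the 9 genes and the alternatives to the reported fit, 115 of 153 values kept their direction and side of the threshold. With the direction kept, 17 lost the call and 10 gained it. The other 11 turned direction and were counted only as such, whether or not their call changed too. The cause was not tested. HDAC9 and HDAC11 kept direction and call in all alternatives run, apart from glmTreat, which tests for more than 2-fold and called HDAC9 alone, so that HDAC4, HDAC11 and MEF2D lost their calls there. The log2 fold changes that turned were HDAC4 with ribosomal protein genes as the scaling (0.088), HDAC7 with these (0.19) or library totals (0.049), HDAC10 with ribosomal protein scaling (0.069), and HDAC5 with the upper quartile (0.061), library totals (0.13), ribosomal protein scaling (0.27), the filter of 10 counts in every library (0.019) and that of a mean of 50 (0.030), and between -0.033 and 0.018 when 1 library was left out. Over all 15298 tested genes, 6713 (library totals) or 9250 (ribosomal protein scaling) were higher, instead of 5037. Of the 9 genes, 6 and 7 were higher under these scalings, instead of 3. None (0) was lower with DESeq2, upper quartile, library totals, ribosomal protein scaling, either stricter filter or an FDR of 0.01, 2 were lower with DESeq2 size factors in edgeR, no filter or the replicate block (HDAC4 and HDAC10), and 0 to 2 were lower when 1 library was left out.

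Over all genes, 1833 were up-regulated, against 1179 where every library needed 10 counts, 974 where the mean had to reach 50 and 1149 by glmTreat. These filters left 13882 and 12209 genes tested. Down-regulated were 77, against 162 (no filter), 38 (library totals), 17 (ribosomal protein scaling), 43 and 20 (the same filters) and 8 (glmTreat). With ribosomal protein scaling 9250 genes were higher, instead of 5037, and 854 lower, instead of 4591; with library totals 2372 were lower. Higher genes made up 52.3% of those past the adjusted p, against 63% (upper quartile), 73.9% (library totals) and 91.5% (ribosomal protein scaling). The HDAC9 share of class IIa with the union of exons as length, chosen after seeing the data, was 0.808% and 2.43%.

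With the replicate number as a replicate block, HDAC10 passed the test (adjusted p = 0.019) and no other call of the 9 genes changed. Libraries of the same number deviated from their group means with r of 0.32, 0.088 and 0.24, where other combinations lay between -0.26 and 0.043. Each library thus correlated best with its own number. The labels do not state pairs, and the reported fit did not use them. Whether the libraries were paired was not tested. With the block 5357 genes were higher and 5100 lower, instead of 5037 and 4591. Depth limits HDAC9 most, with 374 reads in all.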
